A study of Mus musculus with 12 samples.

Results

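Mouse embryonic fibroblasts lacking the damage kinase Atm (Atm-KO) were compared with fibroblasts that carry it (Atm-WT), in cultures that had not been irradiated. The comparison rests on the 6 arrays whose titles name them as non-irradiated, 3 of Atm-KO and 3 of Atm-WT cells, out of 12 arrays in the series. The other 6 arrays were of cells of both genotypes that received 4.32 Gy, and RNA of all groups was taken at day 3, with cultures kept for 72 h. The sources used here do not give the strain, passage or age of the embryos, nor how Atm was disrupted. The labels number the samples of a group as replicates and name no embryo or culture for them. A p-value thus reflects only how far these samples spread, and that spread may be technical in part. Xist and Y-linked genes, given below, split the arrays within each genotype, so these were not all repeats of a single source.

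Atm is a protein kinase activated at DNA double-strand breaks, from which it signals to p53, to the checkpoint kinases and to repair proteins. Fibroblasts also carry sensors of stray DNA and RNA, which through the kinase Tbk1 and the factor Irf3 switch on interferon beta. Secreted interferon acts on its receptor, and factors such as Stat2 and Irf9 then act at the interferon-stimulated response element in the promoters of antiviral genes. Cultures grown from whole embryos can hold other cells beside fibroblasts, such as macrophages and endothelial cells.

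A level is the log2 processed signal of a gene's probe minus the 75th percentile of its array, and a difference is the Atm-KO mean minus the Atm-WT mean with its limma standard error (n = 3 arrays per group). A difference was called where its Benjamini-Hochberg adjusted p in limma was under 0.05 over all 18440 features tested. The 75th percentile of signal ran from 379 to 608 over the 6 arrays, 56% to 63.3% of probes were well above background and no spot was saturated. Arrays of the same genotype correlated with r from 0.9677 to 0.9933. Slide 1 held Atm-WT arrays 1 and 2, slide 2 held Atm-WT array 3 and Atm-KO array 1, and slide 3 held Atm-KO arrays 2 and 3, so slide and genotype overlapped in part and the pair on slide 2 gives the difference within one slide.

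The arrays also differed in features that genotype does not name. Xist, the RNA of the inactive X chromosome, stood at -1.49, -7.44 and -7.27 in Atm-WT arrays 1 to 3 and at -7.24, -1.58 and -1.78 in Atm-KO arrays 1 to 3. The Y-linked Ddx3y ran the other way, at -8.22, -1.82 and -0.72 in Atm-WT and at -0.80, -7.76 and -7.86 in Atm-KO arrays. High Xist with Ddx3y at background was thus seen on Atm-WT array 1 and Atm-KO arrays 2 and 3, and both arrays on slide 2 had the opposite pattern. The 4 sex-linked genes tested were the X-linked Ddx3x, Eif2s3x, Kdm5c and Kdm6a, and 0 were called by limma, also at an unadjusted p under 0.05. Xist and Ddx3y were not tested, since in no group was either well above background on all 3 arrays. The part of the Xist and Ddx3y split in the results was not tested. Immediate early genes set apart the arrays numbered 1, where Fos stood at 1.01 in Atm-WT and 1.03 in Atm-KO cells against 4.66 to 5.06 on the other 4 arrays. Without the number 1 arrays of both genotypes 229 features were called, and without all 4 arrays of that number 1585 were.

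Atm itself was near background in both genotypes. Its brighter probe stood at -3.55, -5.65 and -4.25 in Atm-WT and at -5.43, -7.01 and -6.20 in Atm-KO cells, and was well above background on 2 of 3 Atm-WT and 0 of 3 Atm-KO arrays. The groups overlapped, since Atm-KO array 1 lay above Atm-WT array 2. The difference was -1.73 ± 0.66 (adjusted p = 0.475, limma), and the second probe gave -1.15. Whether the targeting of the gene spares these probes is unknown here, so the labels are only weakly checked by the transcript. Of the 30 tested genes nearest to Atm in the gene table, 15 on each side, 0 were called by limma. At an unadjusted limma p under 0.05, 4 were higher and 2 lower, where 7.54% of all features passed in either direction. Differences ran from -0.77 to 2.32, with a median of -0.03. The highest was Cyp19a1, the aromatase that makes estrogens (adjusted p = 0.0621), whose second probe gave 0.13.

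Between the genotypes 159 features (0.862% of those tested) were called, 72 higher in Atm-KO cells (0.39%) and 87 lower (0.472%). Of these, 137 had a gene name, 60 among the higher and 77 among the lower. The median difference of the called features was 2.31 for the higher and -2.84 for the lower ones, beside a median of 0.04 over all features. Interferon-stimulated genes supplied 34 of the higher calls. Genes of macrophages and other blood cells, and Acadm, an enzyme of fatty acid oxidation, stood at the lower end. Without Atm-KO array 2, Atm-KO array 3 or Atm-WT array 2 the count was 57, 74 or 87, and with normexp background correction 62. At an unadjusted limma p under 0.05 there were 1390 features (7.54%). All 159 called features had groups that did not overlap, as had 8.29% of all features with Atm-KO higher and 5.41% with Atm-KO lower.

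**Figure D1:**
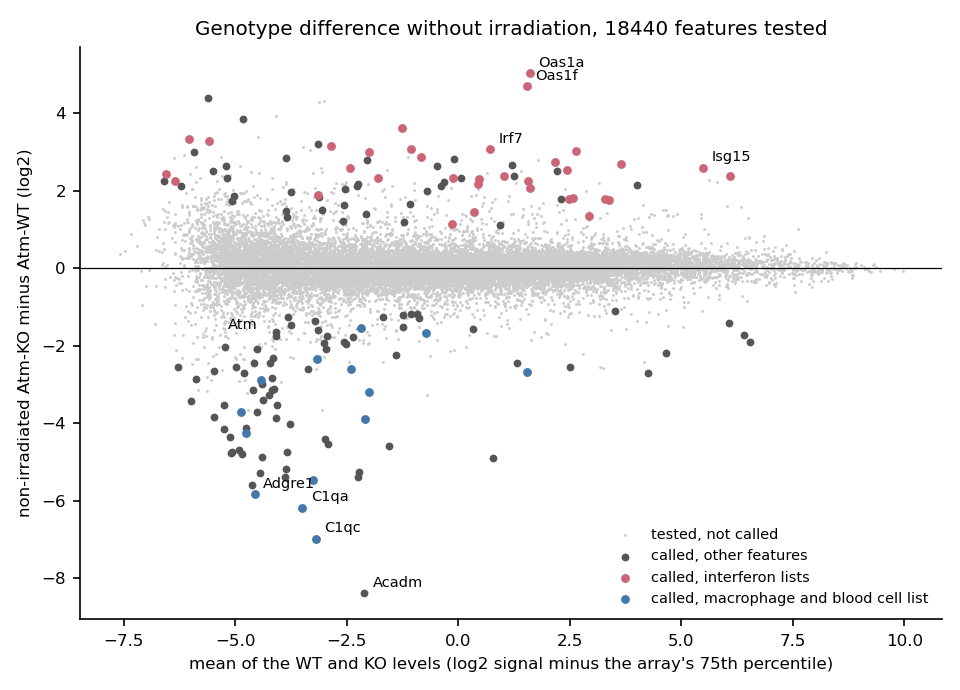
Difference between non-irradiated Atm-KO and Atm-WT fibroblasts (log2, vertical) against the mean level of both groups (log2, horizontal), with 1 point for each of 18440 features. Called genes of the interferon lists (red) lie above 0, from 1.15 to 5.04, and called genes of the macrophage and blood cell list (blue) lie below it, from -1.55 to -6.97, with Acadm lowest at -8.38.

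The interferon-stimulated genes were higher as a group in Atm-KO cells. Over 7 lists of interferon genes, 101 members were on the array, 99 were tested, 34 were called higher and 0 lower, where 0.39% of all features were called higher. At an unadjusted limma p under 0.05, 63 were higher and 1 lower, against 4.2% and 3.34% of all features. The median difference of the 99 was 1.28 (1.17 with genes at background set to their bounds), and 91 were above 0. The groups did not overlap in 69 with Atm-KO higher and in 3 with Atm-WT higher, against 8.29% and 5.41% of all features. Within slide 2 the median was 0.97, with 88 of 99 above 0. That pair is part of the same arrays, so its sign was fixed in the 69 and 3 genes whose groups did not overlap. The called count fell to 21, 22, 12 and 17 without Atm-WT array 1, Atm-WT array 3, Atm-KO array 2 and Atm-KO array 3, in that order, and to 8 with slide as a term of the fit. Markers of macrophages and blood cells ran the opposite way on the same arrays, with a summed linear level of 11.8 to 18.8 in Atm-WT and 2.43 to 2.62 in Atm-KO cells, and their part in the interferon genes' difference was not tested.

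The 2′-5′ oligoadenylate synthetases showed the largest differences. These enzymes make a small messenger on binding double-stranded RNA. Oas1a stood at -1.37, -0.52 and -0.84 in Atm-WT cells and at 4.01, 4.35 and 4.03 in Atm-KO cells. All Atm-KO arrays lay close together and far above all Atm-WT arrays, and the difference was 5.04 ± 0.25 (adjusted p = 2.27e-06). Oas1f gave a like picture, at -1.53, -0.70 and -0.21 against 4.27, 3.77 and 3.62, a difference of 4.70 ± 0.38 (adjusted p = 0.000135). Oas2 rose by 3.61 ± 0.47, Oasl1 by 3.06 ± 0.33 and Oasl2 by 2.70 ± 0.27. Oas1d and Oas1g were not well above background on any Atm-WT array and were at least 2.23-fold and at least 1.13-fold higher in Atm-KO cells, calls that turned to -0.24 and -0.44 under normexp. For such a fold each dim array counts at its own signal or at its dimmest spot that passed the background flag, whichever is higher. That spot can be of any probe, so the fold is a lower limit only within the main processing. Under normexp some differences were smaller than this limit, as for Ccl4 and Adgre1, given below, each at -2.31. Among 11 tested members 7 were called, with a median of 2.87 (1.63 with bounds). Oas3 stood at 2.87 (adjusted p = 0.115), Oas1c at 1.38 and Oas1e at 1.29, all without a call. Since Oas1 genes are close copies of each other, a probe named for one may also capture RNA of another.

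Promoter sequence is shown for 6 called interferon genes, because all are known targets of interferon and moved together here. They are the called members with the smallest adjusted p whose RefSeq promoter window (GRCm38.p6, 250 bases before to 50 after the start) holds the core of the interferon-stimulated response element, GAAA and GAAA with any 2 bases between them, on either strand. The 250 bases before the start are given 5′ to 3′ on the gene's strand, with matches in capitals (a match on the opposite strand reads TTTC, any 2 bases, TTTC here), and overlapping matches run together.
Oas1a (chr5:120907526-120907775, minus strand): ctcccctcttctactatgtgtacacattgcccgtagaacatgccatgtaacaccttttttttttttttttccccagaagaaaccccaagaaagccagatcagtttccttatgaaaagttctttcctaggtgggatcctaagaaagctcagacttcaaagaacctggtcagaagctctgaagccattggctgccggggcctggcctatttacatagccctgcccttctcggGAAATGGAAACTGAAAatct
Isg15 (chr4:156200819-156201068, minus strand): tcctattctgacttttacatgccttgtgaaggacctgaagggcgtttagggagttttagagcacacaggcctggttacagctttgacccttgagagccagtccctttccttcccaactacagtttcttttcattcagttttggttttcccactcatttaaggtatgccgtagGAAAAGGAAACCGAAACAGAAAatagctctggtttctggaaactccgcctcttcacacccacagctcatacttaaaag
Bst2 (chr8:71537473-71537722, minus strand): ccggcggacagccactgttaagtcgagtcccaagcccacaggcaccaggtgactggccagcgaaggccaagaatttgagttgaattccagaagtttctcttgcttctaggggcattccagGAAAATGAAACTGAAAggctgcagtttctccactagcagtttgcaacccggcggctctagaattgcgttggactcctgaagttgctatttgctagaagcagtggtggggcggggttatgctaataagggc
Igtp (chr11:58199306-58199555, plus strand): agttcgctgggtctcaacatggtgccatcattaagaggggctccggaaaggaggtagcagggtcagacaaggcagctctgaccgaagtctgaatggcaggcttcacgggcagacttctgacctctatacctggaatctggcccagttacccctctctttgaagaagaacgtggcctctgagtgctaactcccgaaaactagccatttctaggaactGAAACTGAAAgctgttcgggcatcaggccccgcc
Ifit3 (chr19:34583279-34583528, plus strand): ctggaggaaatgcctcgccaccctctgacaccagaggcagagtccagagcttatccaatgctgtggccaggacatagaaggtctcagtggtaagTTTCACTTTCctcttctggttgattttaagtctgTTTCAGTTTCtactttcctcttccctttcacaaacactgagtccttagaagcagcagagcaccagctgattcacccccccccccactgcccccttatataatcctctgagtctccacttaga
Tgtp1 (chr11:48992247-48992496, minus strand): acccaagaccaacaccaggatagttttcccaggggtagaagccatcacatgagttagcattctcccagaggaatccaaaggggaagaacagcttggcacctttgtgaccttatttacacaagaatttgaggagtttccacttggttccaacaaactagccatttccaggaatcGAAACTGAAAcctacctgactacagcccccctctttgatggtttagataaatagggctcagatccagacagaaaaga
Oas1a and Isg15 hold runs of overlapping matches, 2 and 3 in number, which begin 20 and 78 bases before the start. Bst2 holds 2 overlapping matches from base -130, Igtp 1 from base -34 and Tgtp1 1 from base -77, and in Ifit3 both matches lie on the opposite strand. Of the 34 called interferon genes 27 have a window in the table, and 13 of the 27 (48.1%) hold a match. The share was 38.9% of the 54 tested interferon genes that have a window and were not called, 9.26% of the 54 genes called lower that have one, and 3.99% of all 27025 genes in the table. Over single windows it was 3.44% of 32851. A match is a description of the letters and is not a measured binding site.

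Of the Isg15 system, Isg15 and Usp18 rose. Isg15, a ubiquitin-like protein that is attached to other proteins during the interferon response, stood at 3.56, 4.54 and 4.46 in Atm-WT and at 6.61, 6.96 and 6.80 in Atm-KO cells. The Atm-KO arrays lay close together above all Atm-WT arrays, of which array 1 was the lowest, with a difference of 2.60 ± 0.29 (adjusted p = 0.00104). Usp18, which removes Isg15 and damps signalling at the interferon receptor, rose by 3.02 ± 0.25 (adjusted p = 0.000146). Ube2l6 and Uba7, which carry Isg15 to its targets, stood at 1.03 and 0.93 without a call.

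Among the regulators of the pathway Irf7 and Ifnb1 were called higher. Irf7, a factor that amplifies interferon production, stood at -1.63, -0.33 and -0.52 in Atm-WT and at 1.74, 2.61 and 2.40 in Atm-KO cells, and rose by 3.08 ± 0.35 (adjusted p = 0.0011). Stat2 and Irf9, which act together in the interferon response, stood at 1.31 (adjusted p = 0.0683) and 1.08 (adjusted p = 0.0557), and in both genes all Atm-KO arrays lay above all Atm-WT arrays. The receptor subunits Ifnar1 and Ifnar2 stood at 0.01 and -0.24, the receptor kinases Jak1 and Tyk2 at -0.24 and 0.21, and Irf3 at 0.21. Over the list 3 of 18 members were called higher, with a median of 0.27. Irf8, a factor of myeloid cells, stood at -1.66 (adjusted p = 0.158).

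Interferon beta itself was at the limit of detection. Ifnb1 stood at -7.85, -7.07 and -7.51 in Atm-WT and at -4.90, -5.13 and -5.69 in Atm-KO cells, and was well above background on no Atm-WT array and on 1 Atm-KO array. The call (adjusted p = 0.0145) therefore rests on signal close to background, and the bound is at least 1.22-fold higher. Under normexp background correction the difference turned to -0.43. Among the sensors of nucleic acids, Dhx58, a relative of Rig-I, rose by 2.38 ± 0.38 (adjusted p = 0.0105) and Zbp1, which binds left-handed nucleic acids, rose by 2.17 ± 0.43 (adjusted p = 0.0378). Ifih1, the RNA sensor known as Mda5, stood at 1.52 (adjusted p = 0.162), Cgas, the DNA sensor, at 0.22, the adaptor Mavs at 0.20 and Tbk1 at -0.57. In all, 2 of 11 sensors tested were called, with a median of 0.47.

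Antiviral effectors made up the largest number of calls, 14 of 29 tested, with a median of 1.69. Bst2, which tethers virus particles to the cell surface, stood at 4.56, 5.07 and 5.08 in Atm-WT and at 6.64, 7.65 and 7.58 in Atm-KO cells, a difference of 2.39 ± 0.33 (adjusted p = 0.00348). Ifit3 and Ifit1, which bind foreign RNA, rose by 2.54 ± 0.38 and 2.25 ± 0.36, and Rsad2 (viperin) rose by 2.58 ± 0.48. Cmpk2, a mitochondrial nucleotide kinase that lies beside Rsad2 in the genome, rose by 1.89 ± 0.36 (adjusted p = 0.0317), and Slfn2 by 2.33 ± 0.44 (adjusted p = 0.0267). Under normexp, Rsad2 stood at 0.97 and Cmpk2 at 0.26. Xaf1 rose by 1.79 ± 0.24 and Phf11d by 2.31 ± 0.31. Trim30d was not well above background on any Atm-WT array and was at least 2.97-fold higher in Atm-KO cells, a call that turned to -0.12 under normexp. Other effectors had no call. Ifit2 stood at 0.21, Ifitm3, which blocks virus entry, at 0.54, Ifitm1 at -0.46 and Slfn5 at -1.02. Of the interferon-induced GTPases, which attack the vacuoles of intracellular microbes, 3 of 12 were called. Igtp rose by 1.78 ± 0.27, Tgtp1 by 2.87 ± 0.44 and Iigp1 by 2.08 ± 0.38, while Gbp2 stood at 0.47 and Gbp5 at 0.02. The second Tgtp1 probe gave 1.16.

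Genes that load peptides on MHC class I molecules were higher by smaller amounts. All 14 tested stood above 0 with a median of 1.04, and 3 were called. The immunoproteasome subunits Psmb8 and Psmb9 rose by 1.77 ± 0.27 (adjusted p = 0.00701) and 1.82 ± 0.32 (adjusted p = 0.0178), and the peptide transporter Tap1 by 1.46 ± 0.30 (adjusted p = 0.0446). The class I heavy chains H2-K1 and H2-D1 stood at 1.28 and 1.29 and B2m, their light chain, at 0.79, without a call.

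**Figure D2:**
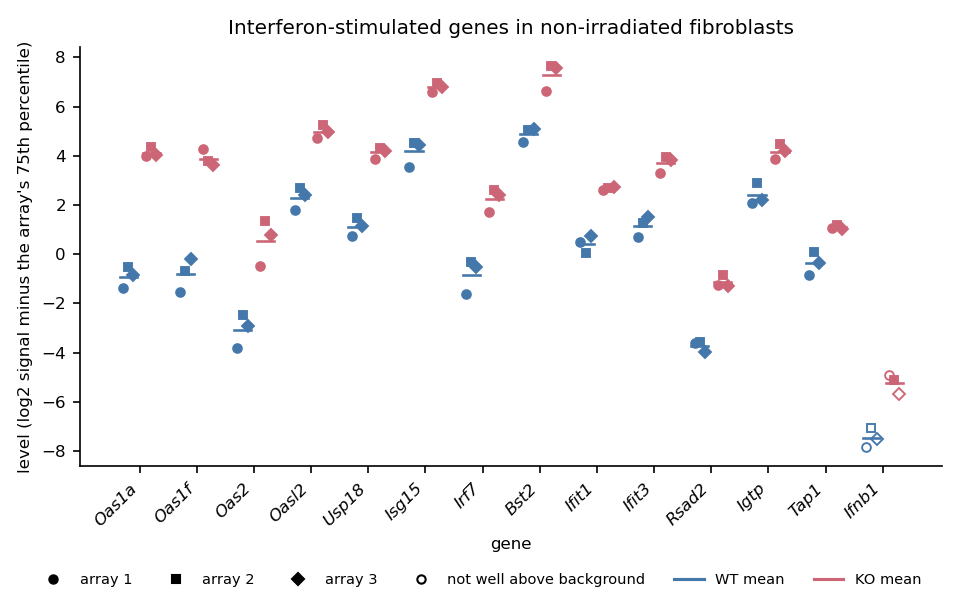
Levels (log2 signal minus the array's 75th percentile) of 14 interferon-pathway genes on the 3 Atm-WT (blue) and 3 Atm-KO (red) arrays without irradiation; circles, squares and diamonds are arrays 1, 2 and 3, bars are group means and open symbols were not well above background. All 14 were picked from the genes called higher, so that the Atm-KO arrays lie above the Atm-WT arrays follows from the choice. Over all 99 interferon genes tested this held in 69. Ifnb1 has a filled symbol on 1 Atm-KO array alone.

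Chemokines moved in both directions. Ccl5, which draws T cells, stood at -0.70, 0.11 and 0.21 in Atm-WT and at 2.13, 2.83 and 2.66 in Atm-KO cells, and rose by 2.67 ± 0.30 (adjusted p = 0.00105). Cxcl10, an interferon-induced chemokine, rose by 2.34 ± 0.42 (adjusted p = 0.02). Ccl4 and Ccl3, which macrophages secrete, fell. Ccl4 stood at -1.25, -0.86 and -1.75 in Atm-WT cells and was not well above background on any Atm-KO array, so that it was at least 18-fold lower (adjusted p = 0.000373), and Ccl3 was at least 8.02-fold lower (adjusted p = 0.0012). Ccl12, which is not on the chemokine list and was among the 12 lowest genes, was at least 12.4-fold lower (adjusted p = 0.0163). The fibroblast chemokines Ccl2 and Cxcl12 stood at 0.04 and 0.41. Of 17 chemokines tested 2 were called higher and 2 lower, with a median of 0.16. Among 11 secreted cytokines Tslp stood at -4.84, -4.84 and -4.53 against -3.47, -2.30 and -2.53 and rose by 1.97 ± 0.30 (adjusted p = 0.00807), which shrank to 0.087 under normexp. Tnf, dim in Atm-WT cells at -4.88, -4.70 and -5.45, was at least 1.36-fold lower in Atm-KO cells (adjusted p = 0.00945).

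Some of the highest genes lie outside the interferon lists. Gpd1, a cytosolic enzyme that links glycolysis to glycerol lipids, stood at -4.05, -4.52 and -5.71 in Atm-WT and at -1.19, -1.98 and -1.45 in Atm-KO cells. All Atm-KO arrays were higher, the difference was 3.22 ± 0.38 (adjusted p = 0.0012), and its second probe, not above background on any of the 6 arrays, gave 0.21. Under normexp the difference was 0.81 (adjusted p = 0.673). Pkp1, a plaque protein of epithelial desmosomes, was not well above background in Atm-WT cells and was at least 2.12-fold higher, a call that turned to -0.33 under normexp. Bglap, the bone protein osteocalcin, rose by 2.05 ± 0.27 (adjusted p = 0.00274), against 0.61 under normexp. Its close copy Bglap3 was also called higher (adjusted p = 0.0263), and RNA of one may be captured by the probe of the other.

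Some called genes that interferon is known to induce are on none of the 7 lists. Rtp4, an antiviral chaperone, rose by 2.16 ± 0.23 (adjusted p = 0.000834). Ifi47, an interferon-induced GTPase, stood at -2.11, -1.22 and -1.76 in Atm-WT and at 0.01, 0.65 and 0.24 in Atm-KO cells and rose by 1.99 ± 0.33 (adjusted p = 0.0126). Sp110, a nuclear body protein, rose by 2.13 ± 0.29 (adjusted p = 0.00348) and Phf11a by 2.22 ± 0.37 (adjusted p = 0.0126). Batf2, a transcription factor above background on 1 of 3 Atm-WT arrays, stood 2.32 ± 0.37 higher (adjusted p = 0.0105), a call that turned to -0.23 under normexp. H2-Q8, a non-classical class I gene, stood at -1.44, -1.93 and -2.02 against 0.46, 1.18 and 0.90 and rose by 2.64 ± 0.43 (adjusted p = 0.0105), although RNA of other class I copies may be captured by its probe.

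Other called genes have tissue roles with no known tie to interferon. Lgals7, a galectin of stratified epithelia, stood at -3.12, -3.73 and -3.16 in Atm-WT and at -1.65, -0.71 and -1.32 in Atm-KO cells and rose by 2.11 ± 0.37 (adjusted p = 0.0184). The potassium channel Kcnk1 rose by 1.85 ± 0.26 (adjusted p = 0.00468), and the water channel Aqp5 by 1.11 ± 0.23 (adjusted p = 0.0454), the smallest difference among the higher calls. Sct, the hormone secretin, rose by 2.17 ± 0.41 (adjusted p = 0.0287). Under normexp Lgals7 stood at 0.76, Kcnk1 at 0.31 and Sct at 0.83.

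Macrophage and blood cell markers were lower as a group in Atm-KO cultures. Of 21 markers on the array 18 were tested, and 14 were called lower and 0 higher, where 0.472% of all features were called lower. The median difference was -2.77 (-2.63 with bounds), and 17 of 18 stood below 0. In 16 the groups did not overlap with Atm-KO lower, against 5.41% of all features. In bulk RNA fewer cells of a type and less RNA per cell cannot be told apart. C1qc, a chain of complement C1q made by macrophages, stood at 0.74, 0.38 and -0.25 in Atm-WT and at -4.75, -7.82 and -7.46 in Atm-KO cells. It was well above background on all 3 Atm-WT arrays and on Atm-KO array 1 alone, with a difference of -6.97 ± 0.84 (adjusted p = 0.00148). C1qa followed the same course at -6.17 ± 0.85 (adjusted p = 0.00359). Adgre1, the macrophage surface protein F4/80, stood at -0.99, -1.39 and -2.60 in Atm-WT cells, was not well above background on any Atm-KO array, and was at least 13.9-fold lower (adjusted p = 0.00253). Tyrobp, an adaptor of myeloid receptors, fell by 5.46 ± 0.80 (adjusted p = 0.00594).

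Some markers stayed detectable in Atm-KO cells. The lysozymes Lyz1 and Lyz2 were well above background on all 6 arrays and fell by 2.68 ± 0.31 (adjusted p = 0.00116) and 2.59 ± 0.27 (adjusted p = 0.000803). Mpeg1, a pore-forming protein of macrophages, stood at 0.59, -0.14 and -0.91 against -4.11, -3.92 and -4.10, a fall of 3.89 ± 0.50 (adjusted p = 0.00239). Its second probe, above background on 1 Atm-WT and 1 Atm-KO array, gave -0.59. Csf1r, the receptor for the macrophage growth factor, fell by 2.33 ± 0.37 (adjusted p = 0.0105, limma). Other Csf1r probes gave -2.07 and -0.35 and were above background on 0 Atm-KO arrays. Coro1a and Itgb2, shared by leukocytes, stood at -1.10 and -0.84 without a call, and the globin Hba-a1 at 0.34. Ptprc, the common leukocyte antigen, and Itgam were well above background on 1 Atm-WT array each and on no Atm-KO array. Spi1, the factor that specifies myeloid cells, was above background on none of the 6. Over the whole list 18 or 19 of 21 markers were well above background on each Atm-WT array, against 14, 10 and 11 on Atm-KO arrays 1 to 3.

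Within the Atm-WT group the markers were lowest on array 3, and within the Atm-KO group mostly highest on array 1. These are the pair on slide 2. Atm-WT array 3 was the lowest of its group in all 14 called markers, and Atm-KO array 1 the highest of its group in 9. The median of the 18 markers within slide 2 was -2.04, with 1 above 0. The sign there was fixed in the 16 markers whose groups did not overlap. With slide as a term of the fit 5 of 14 kept their call, and without Atm-KO array 2 the count was 9.

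**Figure D3:**
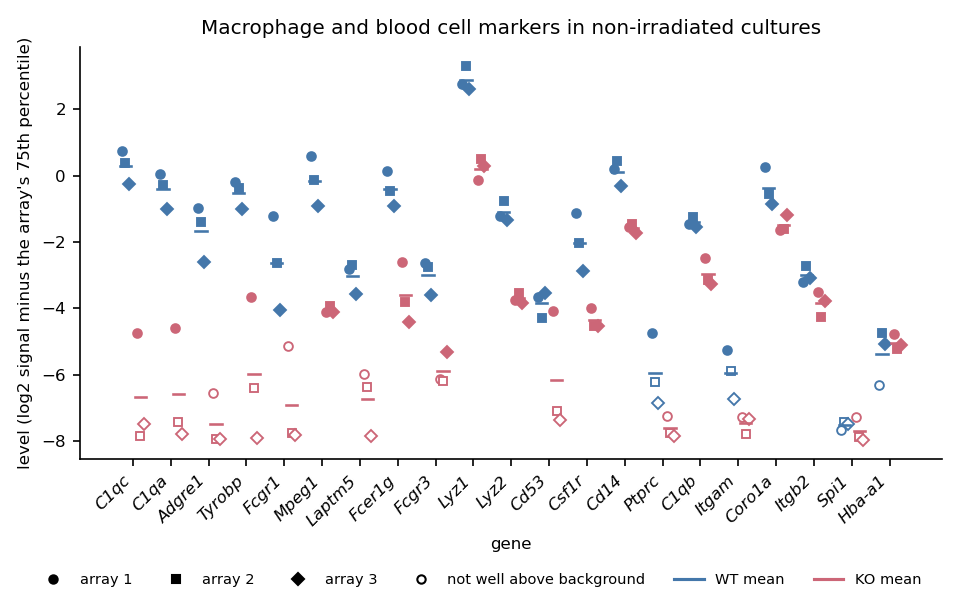
Levels (log2 signal minus the array's 75th percentile) of 21 macrophage and blood cell markers on the 3 Atm-WT (blue) and 3 Atm-KO (red) arrays, ordered by difference; circles, squares and diamonds are arrays 1, 2 and 3, bars are group means and open symbols were not well above background. Most Atm-KO symbols at the left are open, while C1qc reaches 0.74 in Atm-WT cells and Lyz1 stays near 0 in Atm-KO cells.

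Several of the 12 lowest genes that the lists do not hold are known from the same cells. Pirb, an inhibitory receptor of myeloid cells, was at least 12.3-fold lower (adjusted p = 0.00032). Ctss, the lysosomal protease cathepsin S, fell by 5.38 ± 0.81 (adjusted p = 0.00706) and Ms4a7 by 5.38 ± 0.89 (adjusted p = 0.0126), both above background on Atm-KO array 1 alone.

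Genes known from macrophages and other blood cells continued past the lowest 12. Trem2, a lipid receptor that signals through Tyrobp, stood at 0.97, 0.91 and 0.28 in Atm-WT and at -2.71, -4.29 and -4.57 in Atm-KO cells and fell by 4.58 ± 0.43 (adjusted p = 0.000373). That probe stayed well above background on all 6 arrays, while a second Trem2 probe (-4.22) was so on 3 Atm-WT and 0 Atm-KO arrays. The scavenger receptors Msr1 and Stab1 were lower, Msr1 by at least 5.74-fold (adjusted p = 0.00906) and Stab1 by 4.40 ± 0.55 on the log2 scale (adjusted p = 0.00218), with a second Stab1 probe at -1.76. Ncf4, a subunit of the phagocyte oxidase, was at least 11.2-fold lower (adjusted p = 0.00685). Rac2, a GTPase of blood cells, was at least 6.77-fold lower (adjusted p = 0.00902). The signalling proteins of blood cells Vav1 and Inpp5d were at least 2-fold and at least 3.89-fold lower. Aif1, known as Iba1, stood at -1.45, -2.20 and -2.53 against -3.44, -4.39 and -4.11 and fell by 1.92 ± 0.31 (adjusted p = 0.0113, limma). Its brighter probe was detected on all 6 arrays, and its second probe (-2.78) on 1 Atm-WT and 0 Atm-KO arrays. Pf4, a platelet and macrophage chemokine, fell by 1.78 ± 0.35 (adjusted p = 0.0357).

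Lower calls also included genes known from stromal cells and other tissues. Ptn, the growth factor pleiotrophin, was among the brightest, at 6.96, 6.62 and 6.76 in Atm-WT and at 5.34, 5.22 and 5.56 in Atm-KO cells. The groups were tight and apart, and Ptn fell by 1.41 ± 0.29 (adjusted p = 0.0443). The call was lost without each of the 6 arrays in turn (adjusted p up to 0.252), with slide as a fixed term (-1.14, adjusted p = 0.594) and with slide as a random block (adjusted p = 0.0805). Svil, the actin-bundling protein supervillin, fell by 1.09 ± 0.21 (adjusted p = 0.0313). Fmo1, a flavin monooxygenase, fell by 1.52 ± 0.23 (adjusted p = 0.00701) and Egfl6, a secreted matrix protein, by 1.58 ± 0.27 (adjusted p = 0.0172). Cldn11, a tight junction protein, stood at -0.37, -0.17 and -0.33 against -1.70, -3.33 and -2.52 and fell by 2.23 ± 0.45 (adjusted p = 0.0392), with the Atm-KO arrays spread wider than the Atm-WT arrays. Npy1r, a receptor for neuropeptide Y, was at least 3.37-fold lower (adjusted p = 0.0103).

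Ptgds and Reg1 were also among the lowest. Ptgds, which makes prostaglandin D2, stood at 4.17, 2.45 and 3.06 in Atm-WT and at -0.26, -3.49 and -1.23 in Atm-KO cells, and fell by 4.89 ± 0.83 (adjusted p = 0.0145). Its signal passed the background flag on each of the 6 arrays. Reg1 stood at -0.79, 1.16 and 0.82 against -2.08, -6.27 and -6.24, a fall of 5.26 ± 1.08 (adjusted p = 0.0454), with Atm-KO array 1 far above the others of its group.

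Acadm had the lowest difference of all features called. It encodes the medium-chain acyl-CoA dehydrogenase, which takes the first step of mitochondrial beta-oxidation of medium-length fatty acids. It stood at 2.56, 1.78 and 1.88 in Atm-WT cells and at -5.63, -6.63 and -6.66 in Atm-KO cells, where its single probe was not well above background on any array. The gene was thus at least 185-fold lower in the main processing (adjusted p = 8.95e-05, limma). Under normexp the log2 difference was -4.67, smaller than that bound. On slide 2 the difference was -7.50, with Atm-WT array 3 high and Atm-KO array 1 at background. The call was kept without each of the 6 arrays in turn and with slide as a term. The other 20 fatty acid oxidation genes tested were not called, and the list's median was -0.005. Etfa, which takes electrons from Acadm and related enzymes, stood at -0.45.

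Fibroblast markers were detected in both genotypes. All 15 defining markers were well above background on all 6 arrays, as were all 14 smooth muscle and myofibroblast genes. Detection alone thus does not single out fibroblasts. Of the 15 markers 0 were called by limma and 12 stood below 0, with a median of -0.17. The unadjusted limma p was under 0.05 with Atm-KO lower in 2 of them, against 3.34% of all features. Col1a1, the main collagen of fibroblasts, stood at 7.83, 8.40 and 8.26 in Atm-WT and at 8.22, 8.04 and 8.10 in Atm-KO cells, with overlapping groups. Pdgfra stood at -1.17 (adjusted p = 0.193) and Dcn at -0.85 (adjusted p = 0.45). Of 30 extracellular matrix genes 0 were called by limma, with a median of 0.03. At an unadjusted limma p under 0.05, 1 of them was higher and 6 were lower, against 4.2% and 3.34% of all features. Among other cell types, Cdh5, the cadherin of endothelial junctions, fell by 3.10 ± 0.61 (adjusted p = 0.0371), whereas the other 9 endothelial genes tested were not called and Pecam1 and Tie1 were not above background on any of the 6 arrays. Lpl, the lipoprotein lipase, fell by 2.54 ± 0.49 (adjusted p = 0.0325) with the other 9 adipocyte and lipid genes not called. Pkp1 was the 1 epithelial gene called of 12, and Bglap the 1 cartilage and bone gene of 10, in a list whose members all stood above 0 with a median of 0.76. No gene called was on the skeletal muscle, smooth muscle or neural lists.

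The genes that Atm signals to were not called without irradiation. Of 32 p53 targets tested 0 were called by limma and 2 were higher at an unadjusted p under 0.05, with a median of 0.24. Cdkn1a (p21), the cyclin kinase inhibitor, stood at 4.06, 4.66 and 4.40 in Atm-WT and at 4.70, 5.15 and 4.59 in Atm-KO cells, a difference of 0.44 ± 0.31 (adjusted p = 0.983), and the groups overlapped. Mdm2, which degrades p53, stood at 0.01 ± 0.31 and Trp53 at 0.29 ± 0.30. The p53-linked Gdf15 and Cd80 stood at 0.70 and 1.13. In the damage signalling and end joining list 0 of 21 were called by limma (median -0.07), and among homologous recombination and Fanconi genes 0 of 24 (median -0.03), and in both lists 0 had an unadjusted p under 0.05.

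Proliferation genes gave different pictures over the groups and on slide 2. Of 40 DNA replication genes and 37 mitosis genes 0 were called by limma, both lists with a median of 0.09, and 2 and 0 of them had an unadjusted p under 0.05. Mcm2, a subunit of the replicative helicase, stood at 2.04, 2.20 and 1.98 in Atm-WT and at 2.55, 2.46 and 2.25 in Atm-KO cells (difference 0.34 ± 0.23, adjusted p = 0.944). Mki67, a marker of cycling cells, stood at 2.03, -0.18 and 0.36 against 1.09, 0.63 and 0.41, and Ccnb1, the mitotic cyclin, stood at -0.13 ± 0.46. Lmnb1, a lamina protein lost in senescent cells, stood at 0.14 ± 0.24 and Cdkn2a, an inhibitor that accumulates in senescent cells, at 1.90, 2.26 and 2.97 against 1.85, 2.82 and 2.45, with overlapping groups. On slide 2 the medians were 0.58 for replication, with 39 of 40 above 0, and 0.83 for mitosis, with 35 of 37 above 0. That pair sets an array numbered 1 against one numbered 3, and the immediate early genes had a median of -1.79 in it against 0.26 over the groups, with Fosb at -4.36. Cdkn1c (p57), an imprinted inhibitor of cyclin kinases, stood at 6.94, 7.35 and 7.50 in Atm-WT and at 6.02, 4.86 and 5.75 in Atm-KO cells and fell by 1.72 ± 0.34 (adjusted p = 0.0359).

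Among genes that mark position in the embryo few were called. Hox genes set position along the body axis and limb, and of 32 tested 24 stood below 0, with a median of -0.61. At an unadjusted limma p under 0.05, 12 of the 32 were lower and 4 higher, against 3.34% and 4.2% of all features. Hoxd3 fell by 1.64 ± 0.34 (adjusted p = 0.0448), and its second probe, not above background on any of the 6 arrays, gave -0.59. Hoxd13, which patterns the end of the limb, stood at 1.21, -0.15 and -0.62 in Atm-WT and at 1.48, 3.05 and 3.41 in Atm-KO cells, higher on every Atm-KO array but without a call (adjusted p = 0.173). Hoxa13 stood at 2.04 (adjusted p = 0.381), a difference that turned to -0.07 under normexp. Pitx1, a factor of the hind limb, rose by 1.78 ± 0.37 (adjusted p = 0.0477), 1 of 41 regional homeobox and T-box genes called. At the unadjusted threshold 12 of the 41 were higher and 9 lower. Alx1, a factor of the facial mesenchyme, stood at -3.53, -7.11 and -5.21 in Atm-WT and at -2.97, 0.00 and 0.03 in Atm-KO cells. Arrays 2 and 3 of the Atm-KO group stood far above array 1, and the difference of 4.30 was not called (adjusted p = 0.158). Msx1 showed the same order, with 1.56 on Atm-KO array 1 and 3.93 on array 2, and was not called (adjusted p = 0.285). Dlk1, an imprinted surface protein of embryonic and precursor cells, stood at 5.53, 5.81 and 5.86 against 3.74, 3.23 and 3.70 and fell by 2.18 ± 0.25 (adjusted p = 0.00105), with -2.12 on slide 2.

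Signalling and metabolic lists added few calls. In the Wnt list the secreted antagonists Sfrp4 and Wif1 stood at -2.03 (adjusted p = 0.0859) and 2.07 (adjusted p = 0.504), and 0 of 27 were called by limma. At an unadjusted limma p under 0.05, 3 were higher and 3 lower, where 7.54% of all features passed in either direction. All 21 cholesterol synthesis and uptake genes stood below 0, with a median of -0.44, but 0 were called by limma, 1 had an unadjusted p under 0.05 and the slide 2 median was 0.07. The respiratory chain (29 tested), glycolysis and hypoxia (22), protein folding (18), Nrf2 targets (30), Notch (11) and complement (12) lists held 0 calls by limma, with medians from -0.34 to 0.19 and at most 2 members each at an unadjusted p under 0.05.

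**Figure D4:**
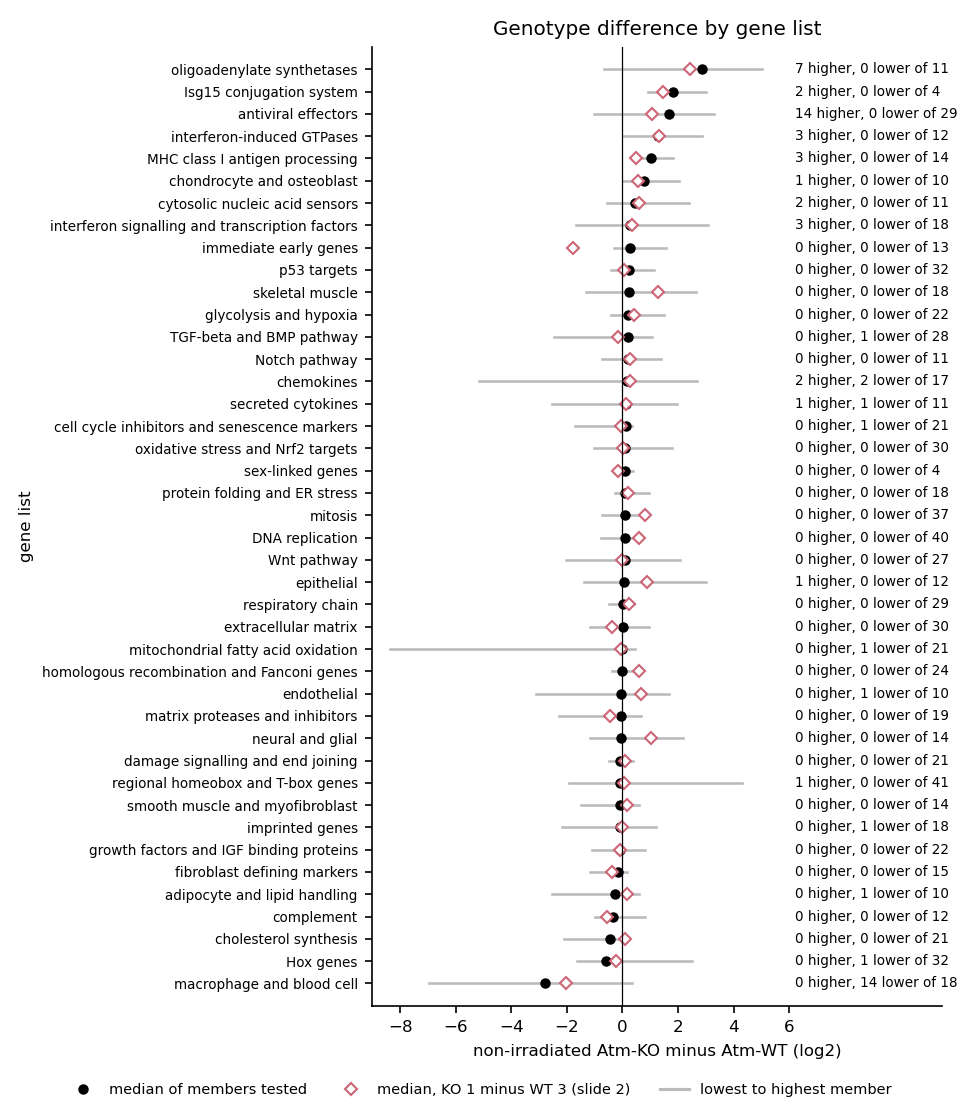
Differences (Atm-KO minus Atm-WT, log2) in 42 gene lists; filled circles are medians over the members tested, open diamonds the medians of Atm-KO array 1 minus Atm-WT array 3 on slide 2, grey lines run from the lowest to the highest member, and calls are written at the right. The oligoadenylate synthetases lie highest at 2.87 and the macrophage and blood cell list lowest at -2.77.

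The pair on slide 2 is part of the 6 arrays and all 159 called features had groups that do not overlap, so its direction follows from the calls and only the size can differ. The medians of the higher and the lower calls were 1.92 and -1.68 there, against 2.31 and -2.84 over the groups, and the difference was smaller in 54 of 72 higher and 77 of 87 lower calls. With slide as a fixed term 34 features were called, among them 33 of the 159. Those that kept a call include Oas1a, Oas1f, Oas1d, Oasl1, Oasl2, Usp18, Cxcl10 and Rtp4 among the higher and Acadm, C1qc, C1qa, Adgre1, Pirb, Ccl4, Ccl3, Lyz1, Lyz2 and Dlk1 among the lower.

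Of the 159 calls, 56 were kept without each of the 6 arrays in turn. Among the genes named above, Trim30d, Rsad2, Oas1g, Cmpk2, Aqp5, Svil, Ptn and Pf4 lost their call without any 1 of the 6. Pkp1, Cxcl10, Zbp1, Iigp1, Pitx1, Tap1, Hoxd3, Cdkn1c, Cldn11, Lpl, Cdh5 and Reg1 lost it in 5 of the 6 fits. The normexp alternative used median spot signal and added an offset of 50 to each signal. Why differences changed with it was not tested. Under normexp 14 of the 72 higher calls and 0 of the 87 lower calls turned sign. A further 25 higher and 58 lower calls shrank by more than 1.5 times. The macrophage genes and Acadm shrank with the rest, C1qc to -3.27 and Acadm to -4.67, both still called. In all, 26 of the 72 higher and 33 of the 87 lower calls were kept under normexp. Of the 14 calls on the macrophage and blood cell list 10 were kept. Ccl3, Msr1, Rac2, Inpp5d, Vav1, Tnf, Npy1r, Cdh5, Aif1 and Pf4 were among the lower genes that lost their call.

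**Figure D5:**
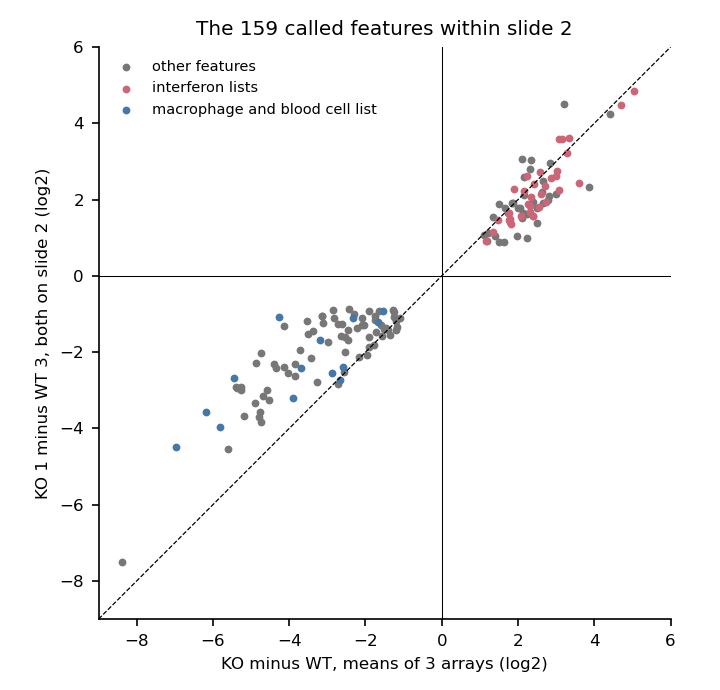
Difference on slide 2 (Atm-KO array 1 minus Atm-WT array 3, log2, vertical) against the difference of group means (log2, horizontal) for the 159 called features; the dashed line marks equal values. Most lower calls lie above the line, with a smaller size on slide 2, and Acadm lies at -8.38 and -7.50; the sign on slide 2 is fixed by the calls.

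The same contrast after irradiation rests on 6 other arrays. The median Atm-KO minus Atm-WT difference of the 99 interferon genes was 0.36 there, and that of the macrophage and blood cell list -2.20. Isg15 stood at 2.60 without and 0.20 with irradiation, Irf7 at 3.08 and 1.20, Acadm at -8.38 and -7.53, and Dlk1 at -2.18 and -2.14. The change in the genotype difference was called for 1 feature, Oas1a (5.04 without and 2.05 with irradiation), and not for the others named here. On irradiated arrays 1 to 3 Xist stood at -0.61, -7.89 and -7.62 in Atm-WT and at -8.37, -1.82 and -1.04 in Atm-KO cells. It was thus high on the same array numbers as without irradiation. Whether arrays of the same number share a source is not stated, and the main fit did not pair them.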

How the data were processed

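Labelled cRNA of 12 samples was hybridised to single-colour Agilent arrays (design 014868). The deposited files give the intensity of each spot as processed by Feature Extraction 10.7.1.1, per the file headers, while the submitters' processing notes name version 11.0. The other deposited columns used were flags (well above background, outlier, saturated). A value matrix on a log2 scale from the authors served as an alternative, and set against the scanner values it proved centred on each probe's median (slopes 0.9986 to 1.0002, column medians -0.426 to 0.268). Here log2 processed signal minus each array's 75th percentile was averaged over spots without control and outlier spots. Of 41174 probes 25097 were named through RefSeq accessions, and the brightest probe stood for a gene. Features well above background on all 3 arrays of any group were tested in a group-means model of all 12 arrays (limma 3.58.1, R 4.3.3). In simulated data this fit called 28% of log2 shifts of 1, 70% of 2, 90% of 3 and 100% of 5. Of the calls there, 9.43% were false. A list without calls can thus still hold smaller changes. Named were Atm, 14 fixed genes, the 12 highest and 12 lowest called genes, and up to 4 called genes per list (the 2 most different where under 2 were called); further genes are given for context and were chosen after their values were seen. Members and lists were chosen with earlier results of these data known. A linear summed level adds 2 to the power of the level over a list's tested members. The number of arrays limits the precision. Alternatives covered background correction, scaling, filters, probes, slide, replicate number and arrays left out. A normexp fit on mean spot signal, planned, was not run because the files as read hold no such column, and median spot signal was used. Some genes that the rule names are not reported here.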

Additional observations from a re-analysis of the deposited data

Results flagged for a closer look

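The genotype difference of Oas1a changed with irradiation. It was 5.04 without and 2.05 with 4.32 Gy, and the difference between them, -2.99 ± 0.36 (adjusted p = 0.0413, limma interaction term over all 18440 features), was the 1 interaction called. All 3 Atm-KO arrays lay above all 3 Atm-WT arrays in both treatments. The fit did not pair irradiated with non-irradiated arrays of the same number.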

How the results depend on the processing

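The alternatives that use normexp on median spot signal or leave out the arrays numbered 1 were added after the data were seen, and normexp on mean spot signal was not run. The cause of the changes below was not tested. Main counts were 159 called (72 higher, 87 lower), 34 interferon genes higher and 14 macrophage and blood cell genes lower. With normexp 62 were called (29 higher, 33 lower, 21 interferon), 145 of 159 calls kept their sign and the median of all features moved from 0.04 to -0.13. With no filter on dim probes 103 were called (45 higher, 22 interferon). With only features above background on all 6 arrays, fewer features were tested and 83 were called (34 lower, 7 macrophage). With slide as a fixed term 34 were called (15 higher, 19 lower, 8 interferon, 5 macrophage), and with slide as a random block 133. Quantile normalization, the authors' matrix and the mean of a gene's probes gave 168, 162 and 152. In a fit on the 6 arrays 49 were lower. Without the non-irradiated number 1 arrays 134 were lower and 22 interferon genes higher, and without all 4 number 1 arrays 1585 were called (769 higher, 816 lower, 59 interferon). Leaving out 1 array at a time gave 57 to 205 called, 24 to 82 higher, 33 to 123 lower, 12 to 25 interferon and 9 to 14 macrophage genes, and 56 of 159 calls were kept in all 6 such fits.

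Same-numbered non-irradiated arrays of Atm-WT and Atm-KO cells correlated at 0.001, 0.179 and -0.216 in their deviations from the group means. Over all pairings of numbers the highest value was 0.277, for Atm-WT array 3 with Atm-KO array 1, which share slide 2. The lowest was -0.237, for Atm-WT array 2 with Atm-KO array 1. Why these differ was not tested. The numbers were therefore not taken to pair the genotypes. Correlation of irradiated with non-irradiated arrays of the same number was not examined. With the replicate number as a block 316 were called (163 higher, 153 lower), 156 of the 159 among them, and Atm passed at -1.73 (adjusted p = 0.00942).

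Differences of single genes turned sign as follows. With normexp Ifnb1 was -0.43, Col1a1 0.22, Cdkn2a 0.22, Oas1d -0.24, Oas1g -0.44, Batf2 -0.23, Trim30d -0.12, Pkp1 -0.33, Cd80 -0.086, Xrcc2 -0.17, Pax3 -0.14, Erg -0.32, Hoxa13 -0.071, Phlda2 -0.24, Kdm6a -0.49 and Gsta2 -0.32. Mdm2 was -0.031 with quantile normalization and -0.052 with the mean of probes, Cdkn2a 0.016 with the authors' matrix and Col1a1 0.095 with the mean of probes. With slide as a fixed term Ccnb1 was 1.18, Mki67 1.22, Cenpf 0.14, Rad50 0.16, Topbp1 0.33, Smc3 0.31, Fosb -4.62, Vcan 0.077, Des 0.32, Comp -0.15, Kdm5c -0.35, Kdm6a -0.21, Hmgcs1 0.32 and Cox7a1 0.033. With slide as a random block Ccnb1 was 0.14, Mki67 0.23 and Fosb -0.40. Without the number 1 arrays Mdm2 was -0.039, Mki67 0.43, Cdkn2a 0.020 and Smc3 0.10. Leaving out 1 array at a time moved Mdm2 from -0.12 to 0.14, Ccnb1 from -0.54 to 0.14, Mki67 from -0.48 to 0.62, Smc3 from -0.99 to 0.13, Fosb from -0.96 to 2.46, Col1a1 from -0.21 to 0.077, Kdm6a from -0.28 to 1.06, Lmnb1 from -0.019 to 0.29, Cdkn2a from -0.24 to 0.29, Sdhc from -0.77 to 0.034. Of these, Ifnb1, Oas1d, Oas1g, Trim30d, Pkp1 and Batf2 were called, with Atm-WT cells at background apart from 1 array for Batf2. Dim probes limit such genes to bounds.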
